A study of Mus musculus with 9 samples.

Results

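Promoter accessibility of 6 genes for costimulatory and inhibitory immune surface proteins (Cd80, Cd86, Cd47, Cd200r3, Cd300a and Clec4a2) was followed in HPC7, a cytokine-dependent line of mouse blood progenitors. The assay was ATAC-seq, where a transposase (Tn5) inserts sequencing adapters wherever DNA is open. All cells carried a MIG retroviral vector: in 3 libraries the vector was empty (EV), in 3 it encoded FLAG-tagged wildtype Snai1, a zinc finger repressor that binds E-box DNA, and in the remaining 3, not analysed here, it encoded the mutant mut5Snai1. Because the control cells were transduced as well, the contrast is between the vector with and without Snai1, not between transduced and untouched cells. The values come from the authors' deposited table, which gives a single mean per group for each promoter window, so no standard deviation or n belongs to any level below, and the depth of each library is unknown. Nothing in the labels ties the libraries of a group to separate transductions, and the authors' p-values may therefore rest on technical spread alone.

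The 6 genes were picked with results of the same contrast known, their changes included. Their windows were found by position: the start of transcription lies 1000 bp into a window of 2001 bp (plus strand) or 100 bp into one of 1101 bp (minus strand), and a window went to the RefSeq gene whose 5' end lay within 1000 bp on that strand, otherwise to the gene spanning it. Each of the 6 genes had exactly 1 window, which makes 6 of the 10271 windows. The levels and changes of these windows are therefore descriptions. All 6 passed FDR 0.05 in the authors' deposited table, beside 29.9% of all windows, but the members were chosen on that contrast and nothing is read from the count.

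The genes encode proteins by which blood cells signal to one another at the surface. Cd80 and Cd86 encode the B7 ligands through which antigen-presenting cells engage CD28, which costimulates T cells, and CTLA-4, which restrains them. Cd47 encodes the ligand of SIRPα that inhibits phagocytosis and is carried by nearly all cells, hematopoietic progenitors among them. Cd200r3 belongs to the CD200 receptor family and encodes an activating member found on mast cells and basophils. Cd300a and Clec4a2 encode inhibitory receptors of myeloid cells whose cytoplasmic tails carry inhibitory tyrosine motifs (ITIMs) that recruit phosphatases. The set thus mixes activating and inhibitory proteins, and ligands and receptors.

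The sequence before the start of transcription is shown for the members with an entry in the RefSeq promoter table, because Snai1 binds E-boxes and because the members differ in CpG content. The table (build GRCm38.p6, which has the coordinates of mm10) held an entry for Cd80, Cd47, Cd200r3, Cd300a and Clec4a2 whose start equalled the start of the deposited window. Each run is the 250 bases before the start on the plus strand, 5' to 3'. In the first 4, capitals mark every CANNTG, the general E-box.
Cd80, chr16:38458683-38458932: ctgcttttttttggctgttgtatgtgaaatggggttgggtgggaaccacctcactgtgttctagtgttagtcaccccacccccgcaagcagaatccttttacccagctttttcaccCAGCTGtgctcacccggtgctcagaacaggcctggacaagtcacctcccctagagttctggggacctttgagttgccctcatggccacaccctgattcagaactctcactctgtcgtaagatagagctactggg
Cd200r3, chr16:44943428-44943677: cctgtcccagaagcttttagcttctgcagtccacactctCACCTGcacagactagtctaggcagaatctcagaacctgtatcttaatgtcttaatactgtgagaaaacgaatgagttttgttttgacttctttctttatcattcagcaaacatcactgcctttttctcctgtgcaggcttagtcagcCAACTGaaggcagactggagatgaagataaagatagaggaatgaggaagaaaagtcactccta
Cd300a, chr11:114889791-114890040: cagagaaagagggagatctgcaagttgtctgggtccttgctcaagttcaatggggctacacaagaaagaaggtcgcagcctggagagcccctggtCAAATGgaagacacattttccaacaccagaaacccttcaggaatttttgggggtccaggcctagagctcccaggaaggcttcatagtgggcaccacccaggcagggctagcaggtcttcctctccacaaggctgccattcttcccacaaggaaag
Clec4a2, chr6:123122440-123122689: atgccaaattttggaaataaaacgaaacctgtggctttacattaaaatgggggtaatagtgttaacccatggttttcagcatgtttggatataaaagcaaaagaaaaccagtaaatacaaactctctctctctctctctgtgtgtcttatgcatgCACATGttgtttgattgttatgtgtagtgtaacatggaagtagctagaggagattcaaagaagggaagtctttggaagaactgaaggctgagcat
In Cd47, which holds no CANNTG in this stretch, capitals mark CG dinucleotides instead.
Cd47, chr16:49855404-49855653: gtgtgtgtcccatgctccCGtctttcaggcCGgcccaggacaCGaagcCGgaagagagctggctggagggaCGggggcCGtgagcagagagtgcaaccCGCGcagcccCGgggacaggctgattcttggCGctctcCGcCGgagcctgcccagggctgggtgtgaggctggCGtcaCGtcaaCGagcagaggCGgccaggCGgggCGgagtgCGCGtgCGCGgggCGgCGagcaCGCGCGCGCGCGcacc

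The E-box form that Snai1 is best known to bind, CAGGTG or its reverse complement CACCTG, was present in 1 of these 5 stretches, that of Cd200r3, where CACCTG began 211 bases before the start. It was present in 13.8% of the 6641 windows with a RefSeq promoter, searched over the same 250 bases on both strands. A second E-box of Cd200r3, CAACTG, began 63 bases before the start. The other members had CAGCTG (Cd80, 134 bases before the start), CAAATG (Cd300a, 155) and CACATG (Clec4a2, 95). Any CANNTG, a class that includes the Snai1 form, was found in 4 of the 5 stretches and in 55.1% of the 6641. The 4 are the stretches with 3 or fewer CG dinucleotides, and among the 402 promoters with so few the shares were 78.6% for any CANNTG and 19.4% for the Snai1 form. These are letter matches within 250 bases, and the deposited windows reach 1000 bp upstream.

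In CpG content, Cd47 stood at the opposite end from the other 4. Its stretch had 30 CG dinucleotides and 73.2% G and C, above 88.3% of the 6641 promoters in CG count. Cd80 had 3 CG dinucleotides and Cd200r3, Cd300a and Clec4a2 had 1 each, against a median of 17 over all promoters (quartiles 11 and 23). The median EV log2 concentration was 8.80 over the 402 promoters with at most 3 CG dinucleotides (quartiles 7.30 and 10.04) and 11.08 over the 780 with at least 30. Set in those groups, Cd300a (6.94) and Clec4a2 (6.77) lay under the lower quartile of the CpG-poor promoters, Cd80 (8.0) and Cd200r3 (8.12) lay between that quartile and the median, and Cd47 (11.95) lay above the median of the CpG-rich ones.

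**Figure D1:**
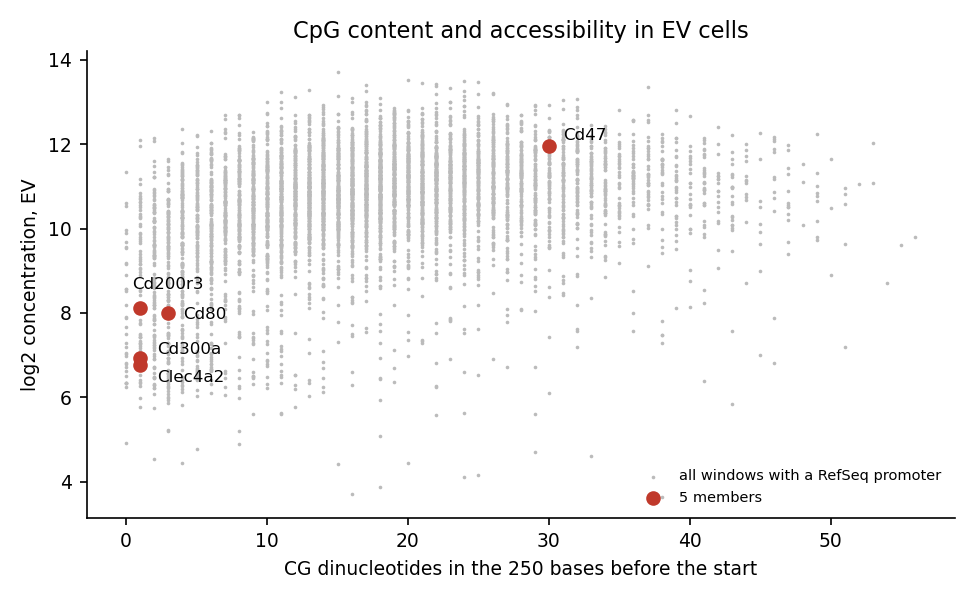
EV log2 concentration (vertical axis) against the number of CG dinucleotides in the 250 bases before the start (horizontal axis) for 6641 windows with a RefSeq promoter; each grey point is a window and red points are 5 members. Cd47 lies at 30 dinucleotides and 11.95, and the other 4 members at 1 to 3 dinucleotides and 6.77 to 8.12.

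In EV cells Cd47 was the open promoter of the set and the others were weakly open. Concentration, as DiffBind calls it, is the log2 of the mean normalized read count of a window, and its median over all windows was 10.78 in EV (quartiles 10.02 and 11.39). Only Cd47 was above that median; Cd86 stood at the 8.0th percentile of EV levels, Cd200r3 at the 6.8th, Cd80 at the 6.3rd, Cd300a at the 3.1st and Clec4a2 at the 2.6th. These ranks are among the 10271 deposited windows, and a gene without a window has no rank. Since the Cd86 window is shorter, genes were ordered by level per kb of window. The EV levels per kb (log2) were 10.95 for Cd47, 8.28 for Cd86, 7.12 for Cd200r3, 7.0 for Cd80, 5.94 for Cd300a and 5.77 for Clec4a2. The gap between Cd200r3 and Cd80 was smaller than the implied standard error of either change (0.16 and 0.21), and so was that between Cd300a and Clec4a2 (0.18 each). The implied standard error was obtained by dividing the change by the normal deviate of the authors' p. It measures a change within a window and not a gap between genes, and no error is known for the levels. Neither order was therefore read as a difference. In Snai1 cells the levels per kb (log2) were 10.00 for Cd47, 8.22 for Cd300a, 7.35 for Clec4a2, 6.83 for Cd86, 6.52 for Cd200r3 and 5.61 for Cd80. Cd300a and Clec4a2 thus moved from the bottom of the order to the places after Cd47. By the levels per window Cd200r3 (7.52) stood above Cd86 (6.97) in Snai1 cells, so the order of Cd86 and Cd200r3 depended on the scaling.

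**Figure D2:**
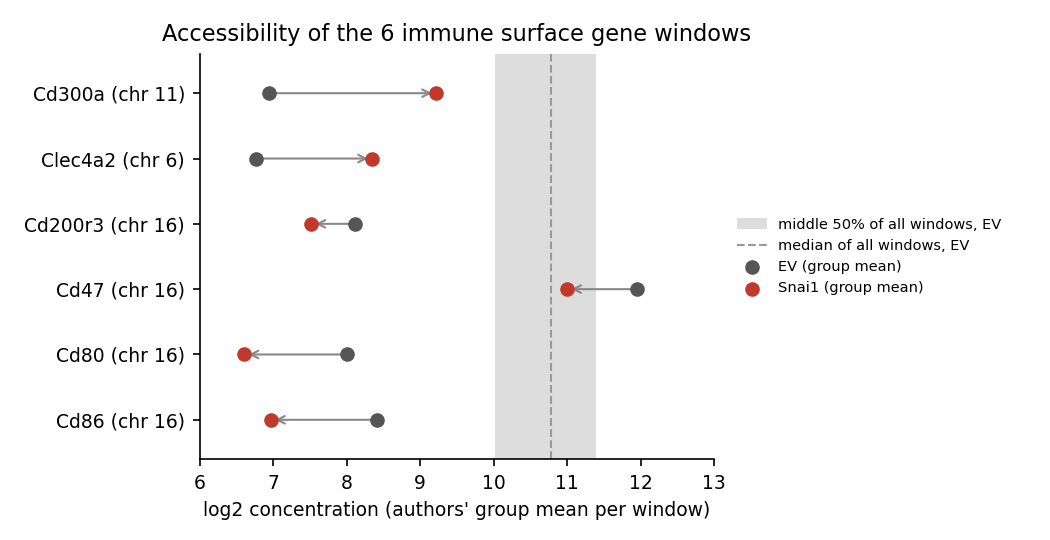
Log2 concentration (horizontal axis) of each member window in EV (grey) and Snai1 (red), each point the authors' group mean; the grey band spans the middle 50% of all windows in EV and the dashed line is their median, 10.78. The 4 genes of chromosome 16 shift to the left and Cd300a and Clec4a2 to the right. Only Cd47 reaches the band, lying above it in EV (11.95) and within it in Snai1 (11.0).

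The B7 ligand genes had lower accessibility with Snai1, by nearly the same amount. According to the authors' deposited table, Cd86 (chromosome 16, 36665977 to 36667077, window start 81 bp inside the annotated 5' end) had a log2 concentration of 8.42 in EV and 6.97 in Snai1, a difference of -1.45 (2.73-fold lower, implied SE 0.16, authors' FDR 1.1e-18). Cd80 (chromosome 16, 38457933 to 38459933) had 8.0 in EV and 6.61 in Snai1, a difference of -1.39 (2.62-fold lower, implied SE 0.21, authors' FDR 1.6e-09). The Cd80 window lies 1503 bp inside the outermost annotated boundary of the gene but at a RefSeq transcript start. Both windows remained far below the median of the deposited windows in both groups.

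Cd86 and Cd80 lay at or beyond the low end of the promoters around them. The 10 nearest windows of other genes on each side of Cd86 ranged from -0.48 to -0.04 (median -0.32), and all 20 lay above Cd86. Its difference from that median was -1.13. Around Cd80 the 20 windows ranged from -2.46 to -0.25 (median -0.40), 19 of them lay above Cd80, and the difference from the median was -0.99. The windows next to the pair moved like the rest of the surroundings: Ccdc58 (-0.31) and Iqcb1 (-0.45) on either side of Cd86, and Adprh (-0.36, FDR 0.175) and Timmdc1 (-0.31) on either side of Cd80. Adprh starts 6.2 kb from Cd80 on the opposite strand and had an EV level of 11.60. The single window lower than Cd80 in its surroundings belonged to B4galt4, which encodes a galactosyltransferase and which was singled out after its value was seen; it had 9.68 in EV and 7.22 in Snai1 (-2.46).

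Those surroundings were much more open than the members, with a median EV concentration of 11.19 around Cd86 and 11.60 around Cd80, and weakly open windows scattered more. Over the whole table the median implied SE was 0.08, and it was 0.17 among the 1142 windows with a log2 concentration under 9, of which 12.3% were called higher and 20.7% lower. Set against the 10 nearest windows on each side with a concentration under 9, a comparison added after the data were seen, the differences were -0.83 for Cd86 and -0.76 for Cd80. Such windows are sparse, so they reached further along the chromosome, as far as the Cd200 receptor genes, and are not strictly local. They also held other members: Cd200r3 for both genes, and Cd86 and Cd80 for each other.

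Cd47 and Cd200r3 lie further along chromosome 16, where the surroundings themselves were lower by more. In the authors' deposited table Cd47 (49854654 to 49856654, 4326 bp inside the outermost boundary of the gene and at a RefSeq transcript start) had a log2 concentration of 11.95 in EV and 11.00 in Snai1, a difference of -0.95 (1.93-fold lower, implied SE 0.10, authors' FDR 3.62e-19). The 20 nearest windows had a median of -0.73 (quartiles -0.91 and -0.45), and 4 of them were lower than Cd47. The windows directly before and after it, those of the intraflagellar transport gene Ift57 (-0.98) and the HMG-box gene Bbx (-0.88), had almost the same difference. Cd47 differed from the median of its neighbours by -0.22, and by -0.07 from that of the 15 windows within 5 Mb.

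Cd200r3 had the smallest difference of the set, and it was smaller in size than that of most promoters beside it. In the authors' deposited table its window (44942678 to 44944678, 82 bp inside the 5' end) had 8.12 in EV and 7.52 in Snai1, a difference of -0.60 (1.52-fold lower, implied SE 0.16, authors' FDR 0.00178). Of the 20 nearest windows 18 were lower than Cd200r3 (median -0.88), so that the gene stood 0.28 above its surroundings. Nectin3 (0.38, FDR 0.032), a cell adhesion gene named after its value was seen, was the 1 window called higher among the 37 windows of other genes between Cd86 and Cd47. Of these 37, 36 had a difference below 0 and the median was -0.75; 86.5% were called lower in the authors' deposited table, against 66.9% of the 335 windows of chromosome 16 and 10.3% of all windows. Ranked from the lowest among the 41 windows of that 13.2 Mb, members included, Cd86 was at place 3, Cd80 at 4, Cd47 at 9 and Cd200r3 at 25.

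**Figure D3:**
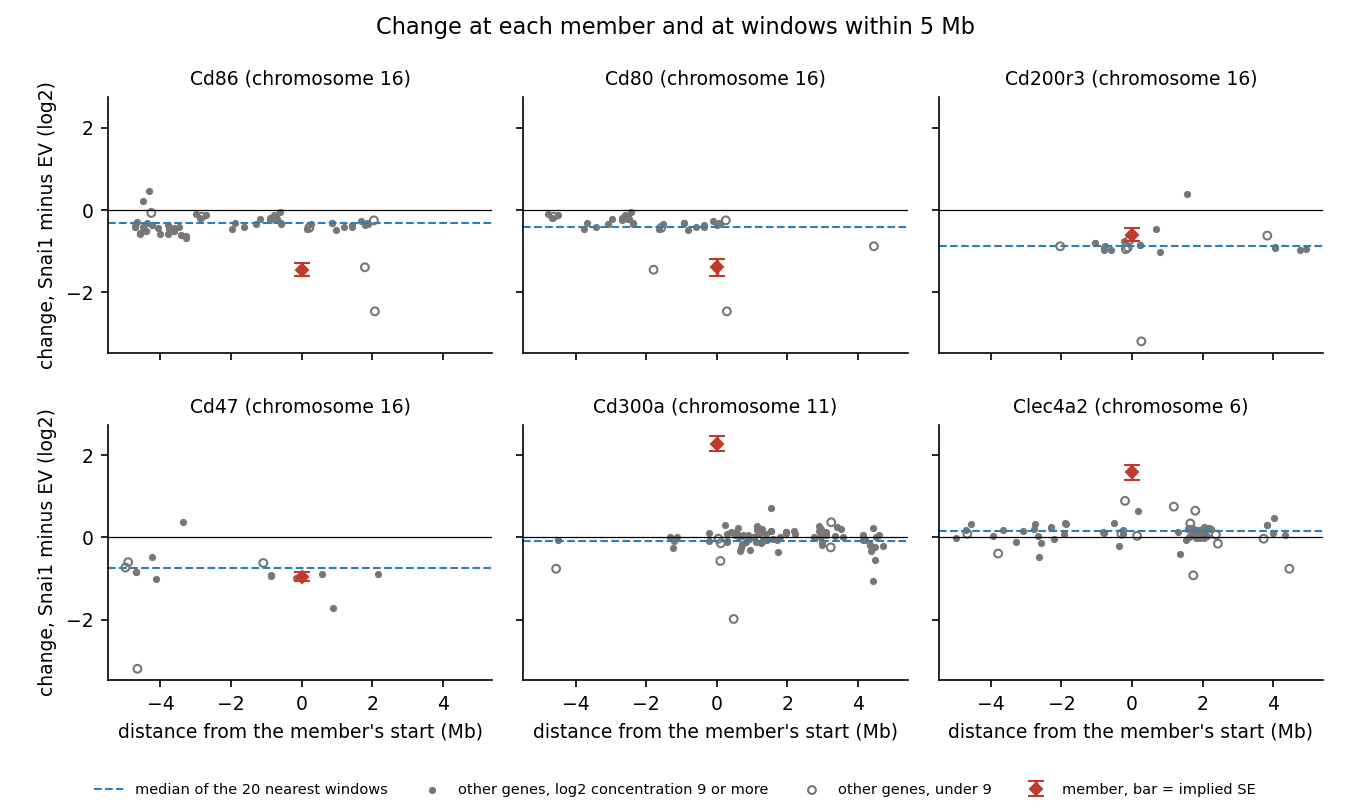
Change in log2 concentration, Snai1 minus EV (vertical axis), at each member (red diamond, bar for the implied SE) and at the windows of other genes within 5 Mb, by distance from the member's start in Mb (horizontal axis); open circles are windows with a concentration under 9, and the dashed line is the median of the 20 nearest windows. Cd86 and Cd80 lie below their lines (-0.32 and -0.40), Cd47 and Cd200r3 near theirs (-0.73 and -0.88), and Cd300a and Clec4a2 above all of the 20 nearest windows.

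Outside chromosome 16 both inhibitory receptor genes were more accessible with Snai1. In the authors' deposited table Cd300a (chromosome 11, 114889041 to 114891041, 889 bp inside the outermost boundary and at a RefSeq transcript start) had a log2 concentration of 6.94 in EV and 9.22 in Snai1, a difference of 2.28 (4.86-fold higher, implied SE 0.18, authors' FDR 1.01e-34). Clec4a2 (chromosome 6, 123121690 to 123123690, at the 5' end) had 6.77 in EV and 8.35 in Snai1, a difference of 1.58 (2.99-fold higher, implied SE 0.18, authors' FDR 4.22e-17). Even in Snai1 cells both levels stayed under the lower quartile of all windows in that group (10.07).

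The surroundings of these genes had medians near that of all windows (0.08). Of the 20 windows nearest to Cd300a 1 was called higher and 3 lower, their median was -0.08, and all 20 were below Cd300a, with a range from -1.98 to 0.30. The window before it, of the chloride channel gene Ttyh2 (0.11, FDR 0.321), and the one after it, of the activating receptor gene Cd300lb (-0.03, FDR 0.899), did not pass. Around Clec4a2 the median was 0.16, with 9 of 20 windows called higher and 1 lower, beside 19.6% and 10.3% of all windows. Again all 20 were below the member, from -0.41 to the 0.89 of Clec4a1. The differences from the surroundings were 2.36 for Cd300a and 1.42 for Clec4a2.

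**Figure D4:**
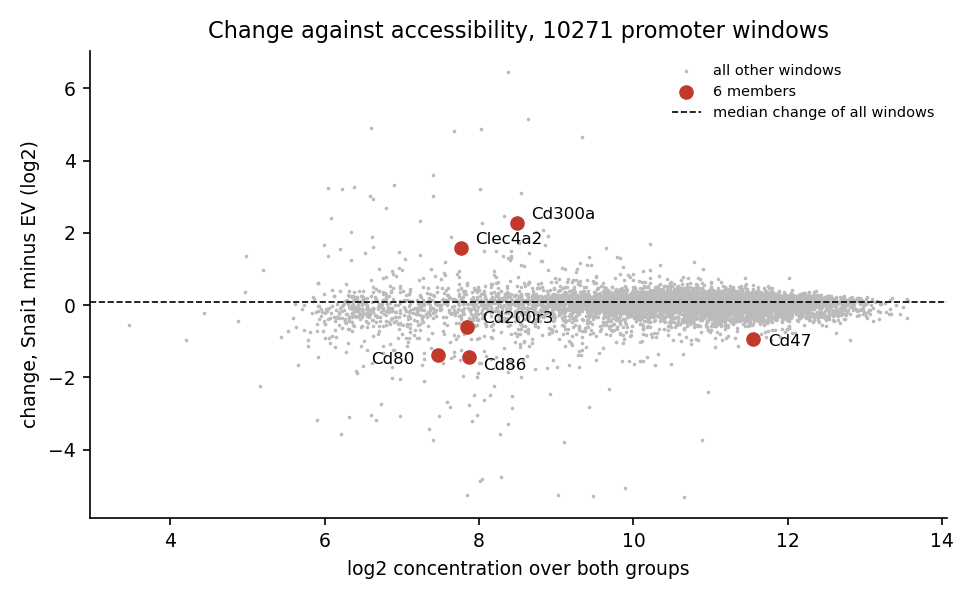
Change in log2 concentration, Snai1 minus EV (vertical axis), against the log2 concentration over both groups (horizontal axis) for 10271 windows (grey) with the 6 members in red; the dashed line is the median change, 0.08. The spread of changes is wider at low concentration, where 5 members lie, and Cd47, at 11.55, lies below the bulk of windows as open as itself.

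The families of the members were then read from fixed lists, with 1 window per gene (the most open one) and members counted apart. Over all 9 lists, 80 of 153 genes other than the members had a window; of these, 20 were higher, 12 were lower and 48 did not pass FDR 0.05 of the authors' deposited table. Their median change was 0.08, equal to that of all genes with a window, of which 19.6% were higher and 10.3% lower. On chromosome 16, where 66.9% of all windows were called lower, 1 of the 5 listed genes was higher and 4 were lower. On the other chromosomes 19 of 75 were higher and 8 lower.

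Within the CD200 receptor cluster, all 3 other genes with a window were lower, like Cd200r3. Of the windows of other genes between Cd86 and Cd47, these 3 among them, 86.5% were called lower, so the count is near the share of that stretch. By the authors' deposited table, the inhibitory receptor gene Cd200r1 fell by 0.95 (implied SE 0.13, FDR 3.24e-11), Cd200r4 by 0.91 (implied SE 0.20, FDR 7.37e-05) and Cd200r2 by 0.73 (implied SE 0.22, FDR 0.0058). The median of the 20 windows nearest to each was -0.84 for Cd200r1 and Cd200r4 and -0.86 for Cd200r2; the genes adjoin one another, so each is among the others' neighbours. Their EV levels were low, 9.08 for Cd200r1, 7.34 for Cd200r4 and 7.02 for Cd200r2. The genes are related in sequence and how reads mapping to several places were handled is not stated, so reads may be shared among them.

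Among the C-type lectin genes of the authors' deposited table, 4 of the 7 others with a window were higher and 0 lower. Over all genes with a window 19.6% were higher and 10.3% lower, and over windows with a concentration under 9, 12.3% and 20.7%. The remaining 3 lectin genes did not pass. All 7 lie on chromosome 6. Clec4e, which encodes the activating receptor Mincle, rose by 0.64 (implied SE 0.10, FDR 2.58e-08), Clec4a1, a close relative of Clec4a2, rose by 0.89 (implied SE 0.18, FDR 1.58e-05), and Clec2d rose by 0.38 (FDR 2.29e-05). Clec2i, named beyond the rule because the count is small, rose by 0.54 (FDR 0.037). Clec4d, which lies between Clec4a2 and Clec4e, had a value of 0.04 (FDR 0.813). The list median of these 7 was 0.43, beside 0.08 for all genes, and the 20 windows nearest to each of the 4 higher genes had medians between 0.12 and 0.14. Whether reads were shared between the related genes Clec4a1 (7.03 in EV) and Clec4a2 was not tested.

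In the CD300 cluster of chromosome 11, the largest difference was that of Cd300a. Of the 4 other members with a window, 1 passed in the authors' deposited table: Cd300lf, an inhibitory receptor gene, which rose by 0.30 (implied SE 0.09, FDR 0.00497). The other 3 did not: Cd300ld (-0.57, FDR 0.0757), Cd300c2 (-0.14, FDR 0.546) and Cd300lb. The list median without Cd300a was -0.08, beside 0.08 for all genes with a window, of which 19.6% were called higher and 10.3% lower.

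**Figure D5:**
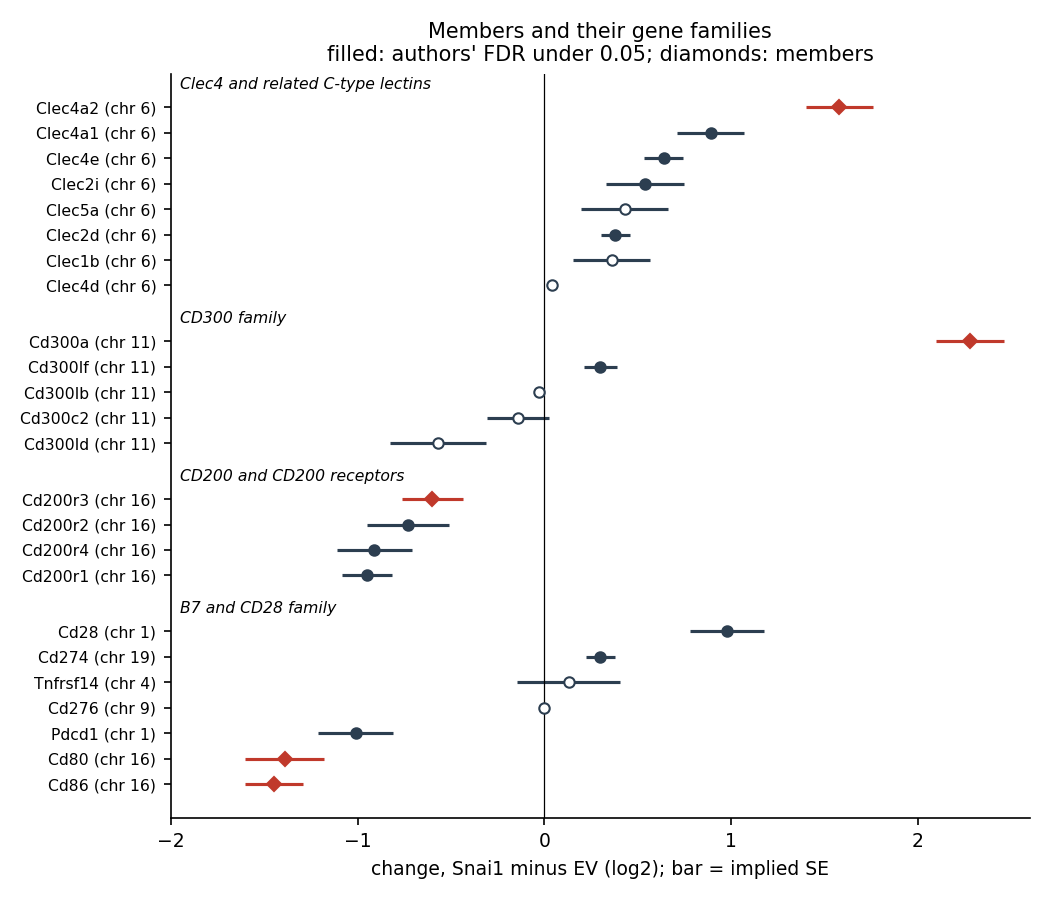
Change in log2 concentration, Snai1 minus EV (horizontal axis), of members (red diamonds) and other genes (dark circles) of 4 families; filled symbols passed FDR 0.05 in the authors' table, and bars are the implied SE, left out for changes under 0.1. The CD200 receptor genes all lie between -0.95 and -0.60, Cd300a lies at 2.28 while its relatives lie between -0.57 and 0.30, and no C-type lectin gene lies below 0.

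Other genes of the B7 and CD28 family had calls in both directions, beside 19.6% of all genes with a window called higher and 10.3% lower. The counts are small. By the authors' deposited table, of 5 other B7 and CD28 family genes with a window, Cd28 itself, the T cell receptor for both ligands, rose by 0.98 from a low EV level of 6.43 (implied SE 0.20, FDR 1.26e-05). Cd274, which encodes PD-L1, rose by 0.30 (FDR 0.000861) at a window 5331 bp inside the gene, and Pdcd1, which encodes its receptor PD-1, fell by 1.01 (implied SE 0.20, FDR 8.47e-06) among neighbours with a median of -0.24. Tnfrsf14 (0.13, FDR 0.748) and Cd276 (0.00, FDR 0.974) did not pass. Of 5 TNF family genes with a window, Tnfsf9, which encodes the 4-1BB ligand, rose by 1.11 (implied SE 0.12, FDR 9.62e-20), and 4 did not pass.

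By the authors' deposited table Sirpa, at a window 1797 bp inside the gene, which encodes the receptor of Cd47, rose by 0.27 (implied SE 0.08, FDR 0.00368) among neighbours with a median of 0.21. Of the 6 genes other than Cd47 in the list of Cd47 partners and phagocytosis signals with a window, B2m, the light chain of class I molecules, also rose (0.26, FDR 0.000497), and Lrp1, a receptor that reads the pro-phagocytic signal calreticulin, fell by 1.24 from 7.38 in EV (FDR 3.53e-08). Calr, Cd24a and Qpctl did not pass. Among all genes with a window, 19.6% were called higher and 10.3% lower.

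Signal transducers downstream of the receptors were called about as often as the deposited windows in general. By the authors' deposited table, 3 of 18 ITAM adaptor and ITIM effector genes with a window were higher, 3 were lower and 12 did not pass, beside 29.9% of all windows called. Lyn, the kinase that phosphorylates ITIMs, rose by 0.73 (FDR 1.44e-16) among neighbours on chromosome 4 with a median of 0.53. Pag1, an adaptor that recruits Csk, fell by 5.26 with a wide error (implied SE 0.59, FDR 1.83e-17). Its level was 8.81 in EV and 3.55 in Snai1, where few reads are left, so the size of its fall is poorly fixed. Src fell by 0.59 (FDR 0.00653). Cblb, a ubiquitin ligase that restrains costimulation, fell by 0.88 on chromosome 16 (FDR 1.28e-14), where the median of its neighbours was -0.47. The ITIM phosphatase genes Ptpn6 (0.02, FDR 0.903) and Ptpn11 (0.01, FDR 0.912), named after their values were seen, did not pass.

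The remaining lists are read beside the 19.6% of all genes with a window that rose and the 10.3% that fell. By the authors' deposited table, 5 of 25 other paired and inhibitory receptor genes were called higher and 2 lower. Of 7 SLAM family genes, 2 were called higher and 2 lower. Among the first, Pecam1 (0.50), Lag3 (0.65) and Cd72 (0.36) rose and Trem1 fell by 0.90. Among the second, Cd84 (0.52) rose, and so did Sh2d1b1 (0.64), which encodes an intracellular adaptor and not a SLAM receptor. Slamf1 fell by 0.80 and Ly9 by 0.43. All 4 lie on chromosome 1 among neighbours with medians between -0.29 and -0.20.

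The genes whose pair of group values lay nearest to a member's, more than 5 Mb away, were ranked by the distance between points of EV and Snai1 log2 concentration, over only 2 values each. Predicted genes, the other members and windows without a gene were left out. The nearest genes are given with their distances. These genes were Pkd1l3 (0.09) and Frmd4a (0.15) for Cd80, Slc12a5 (0.17) and Id3 (0.17) for Cd86, and Src (0.05) for Cd200r3. For Cd47 both were genes of chromosome 16, Qtrt2 (0.12) and Ccdc191 (0.19). Cd300a and Clec4a2 had no gene as close among those compared: the nearest were Zfp711 (0.34) and H1f10 (0.49) for Cd300a, and Dok7 (0.33) and Cebpb (0.38) for Clec4a2.

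The labelled cell type was checked against marker genes. All 12 listed regulators and markers of progenitors had a window, with EV levels between 9.22 and 12.22. By the FDR of the authors' deposited table, 5 rose and 2 fell, beside 19.6% and 10.3% of all genes with a window. Of the 2, Runx1 (-0.61) lies on chromosome 16, where the median of its neighbours was -0.66. Cd34 (-0.39) lies on chromosome 1 among neighbours with a median of -0.22. Of 8 T and B cell markers 0 had a window. Of 6 fibroblast markers 2 had one, at EV levels of 9.15 and 10.14, and Fap was higher (0.38, FDR 0.00367). Of the 8 macrophage and dendritic markers 5 had a window, at EV levels between 7.19 and 10.15; 1 of these, Itgax, was higher in the authors' deposited table (0.98, FDR 0.00664) and 0 were lower, and of 8 mast cell and basophil markers 2 had a window and neither passed. The part of these markers' changes in the values of Cd300a, Clec4a2, Cd80 and Cd86 was not tested.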

How the data were processed

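ATAC-seq libraries of HPC7 cells were labelled as 3 groups of 3 (MIG-EV, MIG-Snai1, MIG-mut5Snai1). The submitters' processing notes name mm10 and the tools Bowtie2, DiffBind, fastp and Picard, without versions. Peak calling, treatment of the Tn5 offset, scaling and multiply mapped reads are not described in the labels or the file. The deposited table holds, per the file headers, log2 concentrations over both groups and per group, a log2 fold (EV minus Snai1), a p-value and an FDR. It has 10274 rows; 3 exact repeats were dropped. The change used here is the difference of the deposited group values, Snai1 minus EV, which equalled the negative of the authors' log2 fold within 0.01. No column holds values of single libraries, so libraries could not be tested against each other and the authors' p-value and FDR (threshold 0.05) are quoted as deposited. Gene ends, transcript starts and promoter sequences are from RefSeq, GRCm38.p6; gene strand came from the promoter table, and a gene without an entry there could match on either strand. Windows numbered 8957 at a 5' end, 1289 within a gene and 25 without a gene. Code (Python 3.11.15, pandas 2.3.3, SciPy 1.17.1) was tested on simulated windows. The members and the gene lists were chosen with earlier results of these data known. Besides the members, genes named were the window on either side of each, the 2 nearest in group values (1 is not reported here), and the called genes of each list (4 with the smallest p where more were called, 2 where none was). Genes of the lists that did not pass were named beyond this rule, after their values were seen. Alternatives covered the centre of the change, the gene assignment, the choice of neighbours, the FDR threshold and the motif.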

Additional observations from a re-analysis of the deposited data

How the results depend on the processing

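No paired analysis was possible because the deposited table gives 1 mean per group and no value per library; for the same reason no library could be left out. With the median of all windows (0.08) subtracted, all 6 members kept their direction and moved by less than their implied SE. Where only a 5' end within 500 bp counted, 3 members had a window, and with an exact 5' end 1. The difference of Cd47 from its neighbours depended on which were taken: -0.22 with 10 windows on each side, -0.07 with 5 on each side or all within 5 Mb, -0.34 with 25, -0.42 with windows of its own width, -0.07 with windows of concentration under 9, and -0.60 against the whole chromosome. That of Cd200r3 was 0.28, 0.08 with 25 windows on each side and -0.25 against the whole chromosome, a change of sign. For Cd80 and Cd86 it lay between -1.07 and -0.76 and between -1.13 and -0.83 over 7 alternatives, with the smallest sizes, -0.76 and -0.83, against windows of concentration under 9. For Cd300a and Clec4a2 it lay between 2.20 and 2.48 and between 1.43 and 1.5. Neighbours left out only the member's own gene, so other members were among them in some settings on chromosome 16. Restricting the lists to windows of concentration at least 9 left 15 of 20 higher and 2 of 12 lower genes. Most lower calls of the lists thus came from windows of concentration under 9, which are then not counted. Of the B7 and CD28 genes 1 of 2 higher and 0 of 1 lower were left. For the CD200 receptor genes it was 0 of 3 lower, and for the C-type lectin genes 2 of 4 higher. Any CANNTG was found in 4 members, CAGGTG on either strand in 1.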
